A study of Mus musculus with 40 samples.

Results

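The genes described here are those named for the proteins of the cytosolic ribosome. They were taken from the count table by symbol: every row named Rpl or Rps with a number, including the paralog copies whose names end in l, together with Rplp0, Rplp1, Rplp2 and Rpsa. This gave 85 of 24060 gene rows. Rpl22 was kept apart because it is the tagged gene of the experiment, which left 84 genes: 42 of the large subunit, 31 of the small subunit, the 3 P stalk genes Rplp0, Rplp1 and Rplp2, and 8 paralog copies, which are second genes close in sequence to a standard member. Among the copies, Rps4l is listed by RefSeq with no coding region.

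A cytosolic ribosome holds 1 copy of most of these proteins, so cells make them in matched amounts. Their mRNAs are short and abundant, and most begin with a C followed by a run of pyrimidines, the 5′ TOP (terminal oligopyrimidine) tract, through which mTOR and LARP1 set how many of the mRNAs are loaded on ribosomes. Most of the genes have also left processed copies elsewhere in the genome, so that a read from the mRNA can fit several places. In brain tissue the genes are used by all cell types.

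RNA was sequenced from mouse striatum in 40 libraries, 10 groups of 4, with total counts between 23438112 and 84109800. In RiboTag, Rpl22 carrying an HA tag is expressed from an adeno-associated virus (AAV) in one cell type, and an antibody against HA pulls down tagged ribosomes with their mRNA (IP), while the input holds RNA of all striatal cells in the lysate. The question asked of these genes was how their mRNA in IP compared with the input of the same cohort, and whether loss of SAPAP3 (gene Dlgap3), a scaffold protein of synapses, changed their levels. The 3 cohorts used different mice.

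The astrocyte cohort was labelled Control and came from C57/BL6NTac mice injected in the dorsal striatum at 6 weeks of age; its virus is not named in the labels and was taken as the GfaABC1D astrocyte promoter from the strain and the study's methods. The neuron cohort came from C57/BL6NTac mice of the same injection age with the hSYN1 promoter, which is used by neurons in general. The SAPAP3 cohort came from C57/BL6J (WT) and C57/BL6J-Dlgap3 KO mice injected at 4.5 months, with input and IP of each genotype and no label for the cell type of the tag. Bulk striatum of WT and Sapap3KO mice, labelled C57/BL6NTac in both groups, had no IP. One animal name stood under both bulk genotypes. In the neuron cohort the labels gave input and IP different animal names.

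Cell type markers were compared first. Astrocyte markers were higher in the astrocyte cohort's IP for 10 of 10 genes (median log2 fold change 2.97). Of 9 tested neuron markers, 3 were higher in the neuron cohort's IP past a log2 change of 1 and 9 without that limit (median 0.72), while 10 of 10 oligodendrocyte markers were lower. In the SAPAP3 cohort 10 of 10 astrocyte markers were higher in IP (median 2.30 in WT and 2.39 in KO). Of 10 oligodendrocyte markers, 4 were higher there in each genotype past a log2 change of 1 and 8 without that limit (median 0.75 in WT and 0.77 in KO). Dlgap3 was between 358 and 469 CPM in WT input and between 158 and 193 in KO input, and bulk WT (228 to 377) did not overlap bulk KO (136 to 157). CPM are counts set to a common library total, here scaled by TMM, a normalisation in edgeR, over all 40 libraries.

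Rpl22, the tag, was higher in IP in every cohort. This was a check of the pulldown, and reads of the viral Rpl22-HA cannot be told apart from those of the mouse gene. Its bulk level, with no virus, was 68.8 ± 2.78 CPM in WT and 69.7 ± 1.29 in KO (SD, n = 4 each). The astrocyte cohort's inputs held 396, 323, 315 and 440 CPM and its IPs 2963, 2680, 2293 and 3073 CPM. For neurons the inputs held 919, 863, 708 and 1024 CPM and the IPs 2960, 2931, 3271 and 3597 CPM. Every IP library stood above every input library of its cohort, and the inputs of both cohorts stood above all bulk libraries. The log2 fold change was 2.83 ± 0.13 (SE) in the astrocyte cohort and 1.85 ± 0.11 for neurons, where the input was already higher.

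In the SAPAP3 cohort the WT inputs held 176, 224, 116 and 140 CPM of Rpl22 and the WT IPs 760, 1868, 838 and 862 CPM. The second WT IP library stood far above the others, and without it the log2 fold change was 2.28 in place of 2.68. The KO inputs held 117, 130, 120 and 107 CPM and the KO IPs 725, 1325, 837 and 526 CPM, a log2 fold change of 2.85 ± 0.23. Rpl22 did not pass the test between genotypes in input (log2 -0.46 ± 0.17, unadjusted p = 0.0238, adjusted p = 0.735 by edgeR), in IP (-0.34 ± 0.33, adjusted p = 0.999, and 0.05 without the second WT IP library) or in bulk (0.02 ± 0.05, adjusted p = 0.995).

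**Figure D1:**
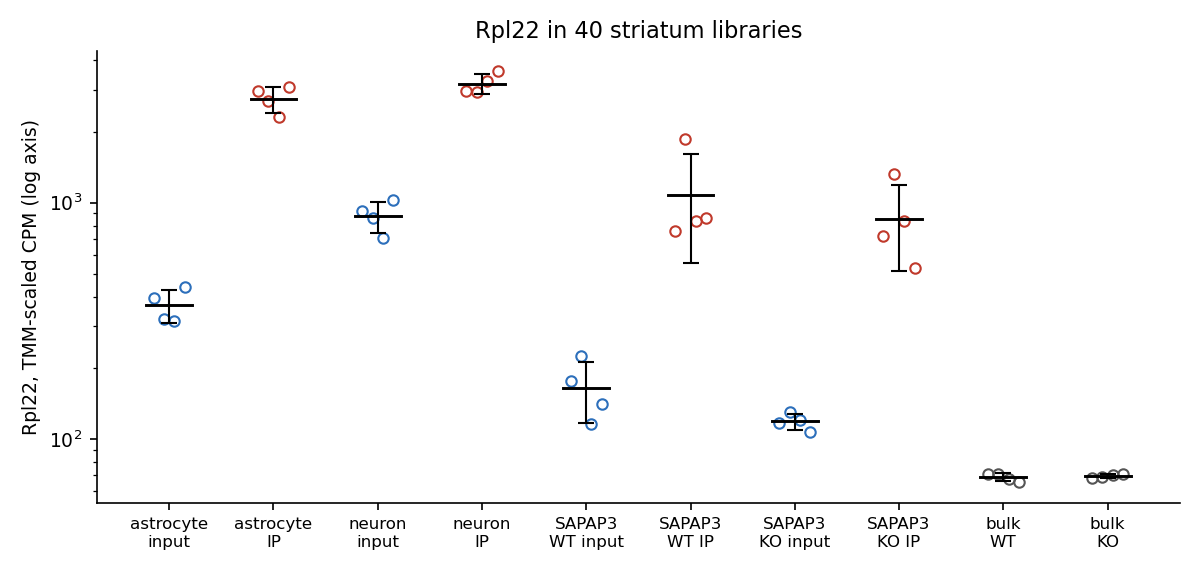
Rpl22 in each of the 40 libraries, in TMM-scaled CPM on a log axis, by group; open circles are libraries, bars the mean and the error bars the SD of 4 libraries. All IP libraries lie above the inputs of their cohort, and bulk striatum lies lowest, at 65.5 to 71.3 CPM.

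Where these mRNAs start was read from the RefSeq promoter table (GRCm38.p6), which held 63 of the 84 genes and Rpl22. A run was counted as TOP-like when the first listed base was C and at least 5 bases from it on were C or T, on the gene's own strand. By this measure 13 of 63 genes (20.6%) had the run at a listed start, against 2.97% of 26961 other genes in the table. Counting also a run of that kind that began within 5 bases of the listed start, after a base other than C or T, 23 of 63 genes (36.5%) held one, against 15.6% of other genes. A listed start is an annotation and can lie some bases from the one used in striatum.

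The following windows run from 10 bases before the listed start to 20 bases from it, with capitals marking the run of C and T through the start. Rpl15, Rpl35, Rps10 and Rps18 have the longest runs among genes whose first listed base is C, Rps6 sharing the length of Rps18. The others are pairs of a gene and its paralog copy, shown so that their starts can be compared.
Rpl15 (chr14:18270967-18270996, minus strand): agaaagCCTTCTTCCTTTCCTCTggcggca
Rpl35 (chr2:39005112-39005141, minus strand): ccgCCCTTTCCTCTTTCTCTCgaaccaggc
Rps10 (chr17:27635225-27635254, minus strand): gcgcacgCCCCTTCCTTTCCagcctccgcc
Rps18 (chr17:33955646-33955675, minus strand): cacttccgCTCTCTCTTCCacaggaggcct
Rps27 (chr3:90213629-90213658, minus strand): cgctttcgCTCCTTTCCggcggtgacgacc
Rps27l (chr9:66946076-66946105, plus strand): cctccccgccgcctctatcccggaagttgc
Rpl22 (chr4:152325716-152325745, plus strand): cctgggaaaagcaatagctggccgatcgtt
Rpl22l1 (chr3:28805498-28805527, plus strand): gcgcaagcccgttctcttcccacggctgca
Rpl36a (chrX:134585644-134585673, plus strand): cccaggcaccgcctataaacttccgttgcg
Rpl36al (chr12:69184048-69184077, minus strand): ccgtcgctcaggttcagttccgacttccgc

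Rps27 held a run of 7 from its listed start. Its copy Rps27l held none at either of its 2 listed starts, but a run of the same kind began within 5 bases of a listed start. Both genes thus held a TOP-like run by the wider measure. The 13 genes with a run at a listed start had a median log2 fold change of -1.24 in the astrocyte cohort's IP. The 48 tested genes without one there had -1.29.

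Genes with genomic copies stood at other levels in the astrocyte cohort than in the rest, which bears on every level given below. Each gene's longest listed mRNA was cut into all of its 75-base windows, the length of a read, and each window was looked up exactly on both strands of GRCm38.p6, the build called mm10 in the labels. For a median gene 53.8% of its windows also stood outside the gene, and 46 genes had over 50% of windows elsewhere. Rps3 was among the 4 genes with none. The next windows, each within a coding exon, show the contrast: for Rps29, Rpl23a and Rps23, which had large gaps between cohorts, the coding window with the most exact copies elsewhere is given, and for Rps3 the first window inside one coding exon, which stood nowhere else.
Rps29 (chr12:69158686-69158760, minus strand, 1 further place): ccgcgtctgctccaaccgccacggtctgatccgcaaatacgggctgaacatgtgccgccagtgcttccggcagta
Rpl23a (chr11:78182906-78182980, minus strand, 7 further places): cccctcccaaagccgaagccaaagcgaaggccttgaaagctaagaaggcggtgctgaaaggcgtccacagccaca
Rps23 (chr13:90924608-90924682, plus strand, 7 further places): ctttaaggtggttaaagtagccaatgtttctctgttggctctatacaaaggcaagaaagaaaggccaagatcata
Rps3 (chr7:99482626-99482700, minus strand): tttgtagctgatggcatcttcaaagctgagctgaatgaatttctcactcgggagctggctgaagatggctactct

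The inputs of the cohorts differed most for genes with such copies. Rps29 held 191, 194, 210 and 194 CPM in the astrocyte cohort's inputs and 0.84, 0.95, 0.69 and 1.00 CPM in those of the neuron cohort, a log2 difference of -7.85 ± 0.08. Rpl23a went from between 153 and 166 CPM to between 1.01 and 1.498 (log2 -6.97 ± 0.08), and Rps23, a protein of the decoding centre, from between 155 and 169 to between 1.66 and 2.11 (-6.45 ± 0.06). Rpl17 differed by -6.46 ± 0.08. By contrast Rps3 held between 259 and 310 CPM and between 216 and 252 CPM (-0.29 ± 0.06). Rpl26 had between 21 and 25 reads in the astrocyte cohort's inputs and 0 in all 4 neuron cohort inputs, which makes it at least 61.0-fold higher in the former against a floor of 3 counts over the group.

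Across the 82 tested genes, 65 were lower in the neuron cohort's input by the rule used for all comparisons between cohorts and fractions, an adjusted p under 0.05 in edgeR's quasi-likelihood test and a log2 change beyond 1, where 2.7% of 15944 genes were. None was higher, against 4.75% of all genes. With no limit on the fold, 79 were lower against 27.5% of all genes, and 0 were higher against 26.4%. The median was -2.54, also with Rpl26 at its bound, beside -0.01 over all genes. Among the 46 genes with over 50% of windows elsewhere the median was -3.72, among 26 genes with 10 to 50% it was -1.87, and among 10 genes with at most 10% it was -0.32. Values of these 10 ran from -1.52 to -0.05. Past the fold limit 2 of them were lower, Rps20 (-1.52 ± 0.07) and Rps15a (-1.11 ± 0.05). Without the limit 7 of the 10 were lower (27.5% of all genes) and 0 higher (26.4%). Over 77 genes above 5 CPM in the astrocyte cohort's input, Spearman's rho between this difference and the share of windows elsewhere was -0.72 (Pearson's r -0.70). These points share the same 8 libraries and one genome.

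**Figure D2:**
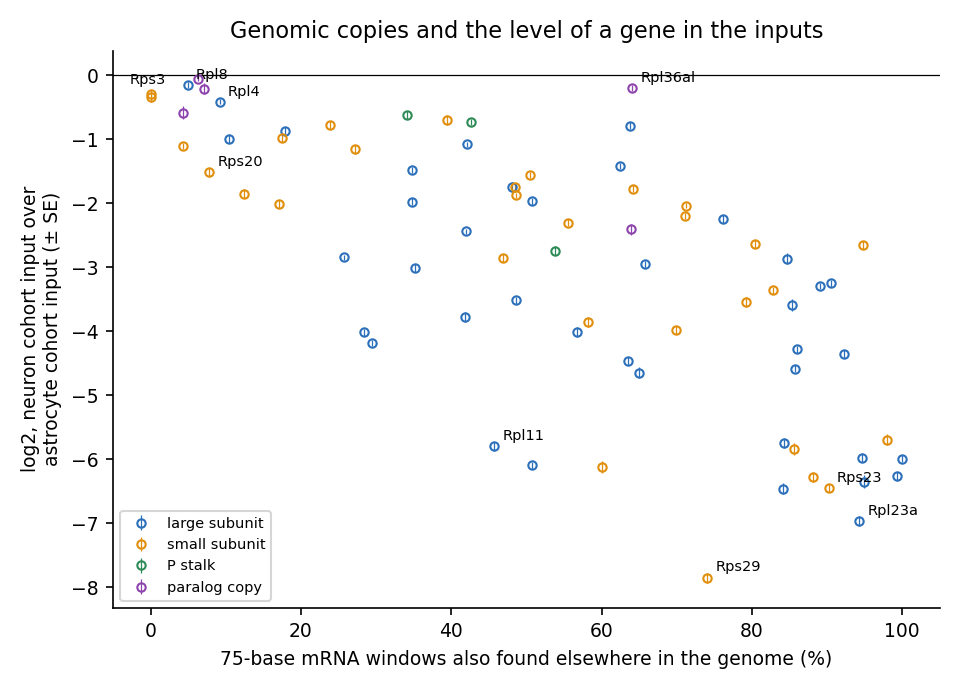
Difference between cohorts in input against the share of 75-base mRNA windows found elsewhere in the genome, for 77 genes; the y axis is log2 of neuron cohort input over astrocyte cohort input with its SE, and colours give the gene's role. Rps3, with no shared windows, lies at -0.29, while Rps29 and Rpl23a lie below -6. Among genes with few shared windows, Rps20 lies at -1.52.

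One exception was Rpl36al, with 64.1% of windows elsewhere, all of them at 1 further place, and a difference of only -0.20 ± 0.05. A pseudogene row moved the other way: Rpl14-ps1 went from between 0.96 and 1.63 CPM to between 96.4 and 108 CPM in the same comparison, and stood between 99.9 and 113 CPM in SAPAP3 WT input, while Rpl14 itself went from 194 ± 10.9 CPM to 50.5 ± 3.45 in the neuron cohort (SD, n = 4). The cohorts also differed in sex: Xist stood at 0 to 0.04 CPM in astrocyte cohort inputs and at 172 to 259 CPM in neuron cohort inputs. Bulk KO libraries, with Xist at no more than 0.03 CPM, held between 0.84 and 1.17 CPM of Rps29 and between 1.32 and 1.71 CPM of Rpl23a. They differ from the astrocyte cohort's inputs in genotype and experiment as well. Counting, sex and cohort cannot be told apart as sources of these input differences. The SAPAP3 groups held both sexes. The comparisons of IP with input that follow are each within a cohort.

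In all cohorts these genes took a smaller share of the counts in IP than in input. The 84 genes held 1.39 ± 0.08% of counts in the astrocyte cohort's input and 0.525 ± 0.017% in its IP, a ratio of 0.377. For neurons the shares were 0.385 ± 0.026% and 0.246 ± 0.008%, a ratio of 0.640. In the SAPAP3 cohort WT fell from 0.372 ± 0.041% to 0.201 ± 0.016% (ratio 0.542) and KO from 0.351 ± 0.022% to 0.202 ± 0.017% (ratio 0.575; SD, n = 4 each). No IP library reached the lowest input of its cohort. The exact permutation test over libraries (two-sided) gave p = 0.0286 for each of the 4 comparisons, the smallest that 4 against 4 libraries can give. It exchanged libraries freely and ignored the pairing of IP and input libraries, which deviated together. A test within 4 pairs, which was not run, could not reach so small a p-value. In input and bulk tissue, fewer cells of a type and less RNA per cell cannot be told apart.

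**Figure D3:**
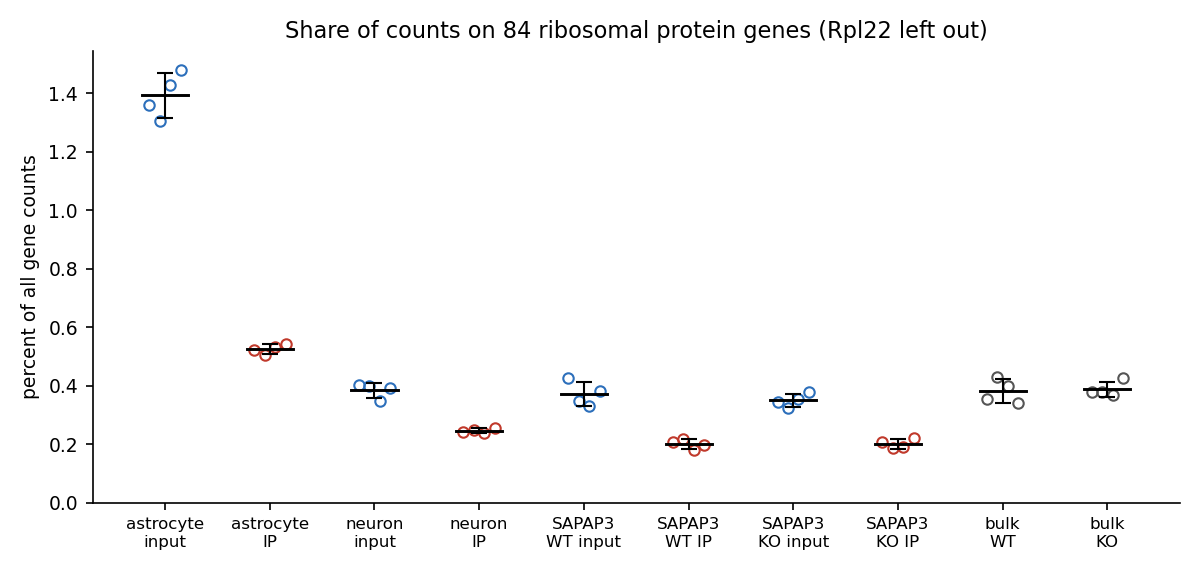
Percent of each library's counts on the 84 ribosomal protein genes without Rpl22; circles are libraries, bars the mean and error bars the SD of 4 libraries. The astrocyte cohort's input lies at 1.31 to 1.48% and all other groups lie below 0.55%, with IP below input in each cohort.

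Gene by gene, most of the standard members were lower in IP. In the astrocyte cohort 53 of 82 tested genes were lower by the rule with the fold limit, where 13.5% of 15476 genes were, and 0 were higher, where 13.4% were. Without the fold limit 78 were lower (41.2% of all genes) and 3 higher (39.2%). Their median log2 fold change was -1.23, beside -0.02 over all genes. All 31 small subunit genes had a negative value, 27 of them past the fold limit (median -1.36), and so had 41 of 42 large subunit genes, 23 past the limit (median -1.04). The genes that were not tested fell below the count filter: Rpl10l, whose counts were 0 in all 40 libraries, and Rpl39l, at no more than 0.16 CPM in any RiboTag library.

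The neuron cohort showed the same sign with smaller sizes. There 10 of 81 tested genes were lower past the fold limit, a share below the 15.8% of 16198 genes that were, and 0 were higher (0.42%). Without the fold limit 65 were lower (35.9%) and 5 higher (35.5%), with a median of -0.52 beside 0.00 over all genes. The 31 small subunit genes again all had a negative value, with 29 passing without the fold limit and 3 with it. Of 41 tested large subunit genes 33 were lower without the fold limit and 5 with it.

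In the SAPAP3 cohort 25 of 81 tested genes were lower in WT past the fold limit (12.1% of 15587 genes) and 1 was higher (10.9%), and 68 and 3 without the limit (34.6% and 32.7%). In KO 11 of 81 were lower (11.5% of 15583 genes) and 1 higher (12.3%), and 65 and 3 without the limit (35.9% and 36.1%). The median was -0.83 in WT and -0.71 in KO. The count in WT, 25, ranged from 18 without the first to 33 without the second WT input library, and was 30 without the second WT IP library, the one with the high Rpl22. With libraries scaled by total counts alone, 19 genes were lower in the neuron cohort, 42 in WT and 33 in KO.

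**Figure D4:**
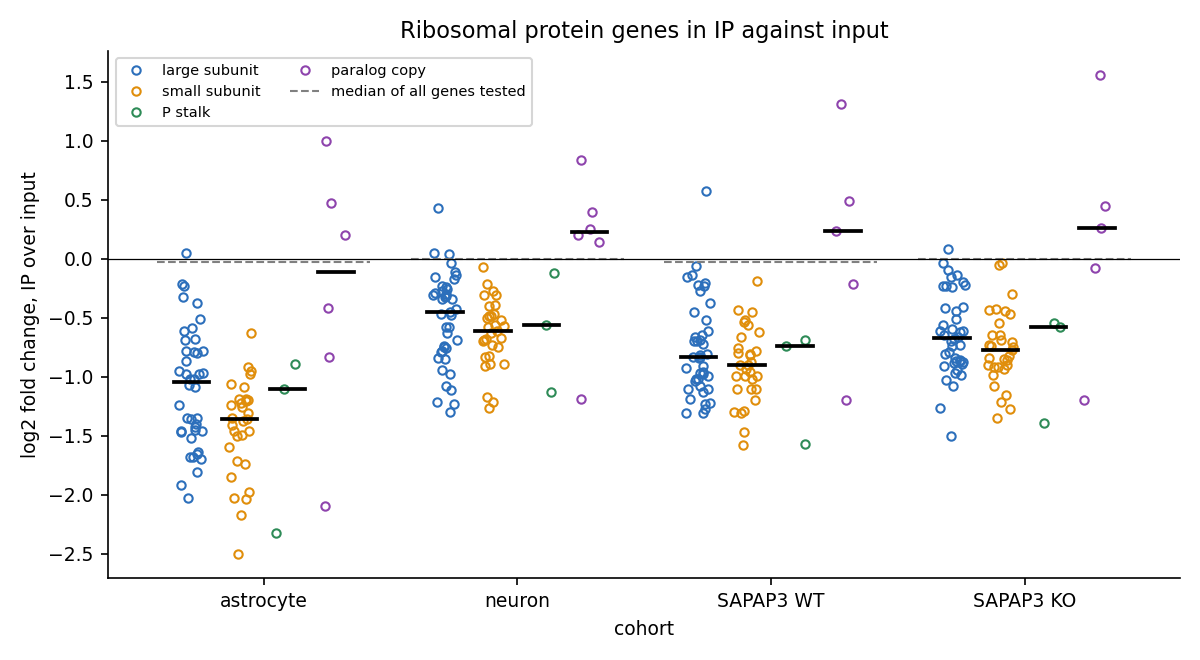
Log2 fold change of IP over input for each gene in the 4 comparisons, by role; black bars are medians by role and dashed lines the median of all genes tested. Large and small subunit genes lie mostly below 0 in each cohort, lowest in the astrocyte cohort, and the median of the paralog copies lies higher in each.

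Of 80 genes tested in all 4 comparisons, 72 had a negative log2 value in each, where 22.1% of 15156 genes had, and 62 were lower with an adjusted p under 0.05 in each, where 13.3% were. Rpl17, Rpl22l1, Rpl23a, Rplp1, Rps12 and Rps13 were lower past the fold limit in all 4, and these 6 of 80 were a share near the 5.67% of all genes. Over these genes the values of the astrocyte cohort and of SAPAP3 WT had a Spearman's rho of 0.82 (n = 81), those of the astrocyte and neuron cohorts 0.64 (n = 81), and those of SAPAP3 WT and KO 0.92 (n = 81). Each comparison used its own libraries, but the points share gene length and base composition.

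Among the P stalk genes, which form the arm of the large subunit that binds elongation factors, Rplp1 fell furthest. Its astrocyte cohort inputs held 406, 408, 439 and 425 CPM and its IPs 87.9, 84.8, 90.2 and 88.1 CPM. All 4 IPs stood far below the inputs, with a log2 fold change of -2.33 ± 0.04 (adjusted p = 2.54e-12, edgeR). Its neuron cohort inputs held 271, 270, 236 and 257 CPM and IPs 113, 124, 120 and 118 CPM, a log2 fold change of -1.13 ± 0.05, and it was -1.57 ± 0.15 in SAPAP3 WT and -1.39 ± 0.11 in SAPAP3 KO. Rplp1 mRNA per kilobase of exon was the highest of the 84 genes in every input group and in bulk. It stood at 896 FPKM (CPM per kilobase) in the astrocyte cohort's input. In that cohort's IP it held 187 FPKM and was not among the first 3. There Rpl9 led at 200 FPKM, and Rpl8 and Rpl4 followed close by at 199 and 192 FPKM. Rpl9, with 94.9% of windows elsewhere, held 2.36 FPKM in neuron IP, so this order depends on the level of genes with copies in the astrocyte cohort. Rplp1 remained first in neuron IP at 254 FPKM and was second, behind Rpl8, in SAPAP3 IP at 179 FPKM in WT and 176 in KO.

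Rplp0, the scaffold of the stalk, fell less, with log2 values of -0.89 ± 0.05 and -0.56 ± 0.06 in the same 2 cohorts, and passed only without the fold limit. Rplp2 stood at -1.10 ± 0.04 in the astrocyte cohort and at -0.12 ± 0.08 for neurons, where it did not pass (adjusted p = 0.233, edgeR). Its neuron cohort inputs held 20.7, 21.0, 15.9 and 19.3 CPM and its IPs 17.3, 17.3, 17.95 and 18.95 CPM, and these overlapped. The 3 genes of one structure thus had unequal values in each cohort.

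Among small subunit genes, Rps12 had the lowest value of all in the astrocyte cohort. Its inputs held 174, 174, 210 and 210 CPM and its IPs 35.7, 32.0, 37.3 and 37.0 CPM, a log2 fold change of -2.50 ± 0.08 (adjusted p = 1.29e-10, edgeR). For neurons, at 3.54 to 4.15 CPM in input, it was -1.17 ± 0.11, and in the SAPAP3 cohort -1.46 ± 0.18 in WT and -1.35 ± 0.19 in KO. Rps29, one of the shortest coding regions here at 171 bases, was -2.17 ± 0.06 in the astrocyte cohort, with inputs of 191 to 210 CPM and IPs of 40.8 to 49.5 CPM. For neurons it was -0.90 ± 0.17, on no more than 0.998 CPM.

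Rps28 fell in the same way at levels that could be followed in all cohorts. Its astrocyte cohort inputs held 101.1, 93.8, 102.1 and 98.4 CPM and its IPs 24.4, 25.1, 26.6 and 25.1 CPM (log2 -2.03 ± 0.04). Its neuron cohort inputs held 21.3, 21.3, 17.8 and 21.1 CPM and its IPs 10.22, 10.95, 11.45 and 11.13 CPM (-0.91 ± 0.07, adjusted p = 1.80e-06, edgeR). The groups did not overlap in either. Rps28 stood at -1.30 ± 0.12 in SAPAP3 WT and -1.27 ± 0.12 in KO.

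Rps13 had the lowest value in SAPAP3 WT, -1.58 ± 0.27, with inputs of 1.27 to 1.64 CPM and IPs of 0.28 to 0.68 CPM. It was -1.22 ± 0.21 in KO, -1.21 ± 0.19 in the neuron cohort and -1.20 ± 0.06 in the astrocyte cohort, where its level was 80.8 to 96.8 CPM in input. Rps16 was -1.26 ± 0.15 in the neuron cohort and -1.503 ± 0.07 in the astrocyte cohort. Rps23 fell in the astrocyte cohort (-1.22 ± 0.05) but did not pass in the neuron cohort (-0.07 ± 0.13, adjusted p = 0.6485, edgeR) or in SAPAP3 KO (-0.03 ± 0.19), where it held no more than 2.11 CPM. Rpsa, the protein first described as a laminin receptor, held 329, 338, 347 and 353.1 CPM in the astrocyte cohort's inputs and 137, 136, 140 and 146 CPM in its IPs, a log2 fold change of -1.36 ± 0.04. It was -0.63 ± 0.05 in the neuron cohort, -0.96 ± 0.08 in SAPAP3 WT and -0.84 ± 0.07 in KO.

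Among large subunit genes, Rpl17 was lowest in the neuron cohort at -1.30 ± 0.13, and stood at -1.81 ± 0.05 in the astrocyte cohort, where inputs held 244 to 282 CPM and IPs 74.6 to 82.9 CPM. Rpl23a was -1.65 ± 0.03 in the astrocyte cohort and -1.08 ± 0.22 for neurons, and Rpl12, which lies at the base of the stalk, -1.68 ± 0.06 and -0.98 ± 0.11. Rpl10a was lowest in SAPAP3 KO at -1.505 ± 0.153, on 2.94 to 3.43 CPM in input and 0.93 to 1.30 CPM in IP. Its astrocyte cohort value was -0.69 ± 0.04. Rpl24 had a like pattern, with -1.21 ± 0.12 in the neuron cohort and -0.78 ± 0.06 in the astrocyte cohort.

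Some large subunit genes stood near 0, among them Rpl15 (0.05 ± 0.05) and Rpl19 (0.04 ± 0.07) for neurons. Rpl18 held 80.5, 76.4, 85.7 and 89.9 CPM in the astrocyte cohort's inputs and 77.7, 72.8, 73.8 and 76.9 CPM in its IPs, a log2 fold change of -0.21 ± 0.05, and its values in the SAPAP3 cohort did not pass (-0.06 ± 0.12 in WT and 0.08 ± 0.09 in KO). Rpl26 was at 0.65 to 1.06 CPM in the astrocyte cohort and did not pass in any comparison of IP with input in which it was tested. Rpl34, at 0.69 to 0.88 CPM in neuron cohort input and 1.01 to 1.32 CPM in IP, was 0.43 ± 0.15 there (adjusted p = 0.0303, edgeR) and -1.02 ± 0.12 in the astrocyte cohort. It was the only large subunit gene called higher without the fold limit in the neuron cohort.

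Of the 6 paralog copies tested in the astrocyte cohort 3 were higher and 3 lower without the fold limit, close to the 39.2% and 41.2% of all genes. Rps27l, a copy of Rps27 whose gene responds to p53, held 11.48, 10.39, 12.01 and 13.62 CPM in the astrocyte cohort's inputs and 23.8, 22.4, 25.8 and 27.2 CPM in its IPs. All IPs stood above all inputs, with a log2 fold change of 0.99 ± 0.09 (adjusted p = 9.22e-07, edgeR), just inside the fold limit. In SAPAP3 WT its inputs held 9.45, 9.13, 7.995 and 10.01 CPM and its IPs 17.49, 30.4, 22.03 and 23.62 CPM (log2 1.315 ± 0.153), and in KO it was 1.56 ± 0.10. In both it was the 1 gene called higher past the fold limit. For neurons it was 0.40 ± 0.12 (adjusted p = 0.0133, edgeR), with inputs of 6.70 to 9.19 CPM and IPs of 9.52 to 13.1 CPM.

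Rps4l, which RefSeq lists here as a transcript of 1 exon with no coding region, held 13.4, 13.2, 11.7 and 12.1 CPM in the astrocyte cohort's inputs and 19.4, 19.4, 17.5 and 17.1 CPM in its IPs (log2 0.47 ± 0.07). It was 0.84 ± 0.11 in the neuron cohort, 0.49 ± 0.12 in SAPAP3 WT and 0.45 ± 0.14 in KO. Rpl7l1 stood between 0.20 and 0.26 in all 4 comparisons, with 37.8 to 40.6 CPM in astrocyte cohort input and 45.8 to 49.6 in IP, and when libraries were scaled by total counts alone it changed sign, to -0.0206 for astrocytes and -0.00102 for neurons. Rps27l, Rps4l and Rpl7l1 were the 3 genes with a positive value in all 4 comparisons, each with an adjusted p under 0.05 in edgeR (10.8% of 15156 genes), Rpl7l1 only with TMM scaling in 2 of them.

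Rpl36al, the copy of Rpl36a, was -0.42 ± 0.06 in the astrocyte cohort and 0.25 ± 0.05 for neurons (adjusted p = 0.00147, edgeR), and did not pass in SAPAP3 WT (-0.21 ± 0.09, adjusted p = 0.0662) or KO (-0.08 ± 0.07, adjusted p = 0.3435). Rpl3l, known from heart and skeletal muscle, stayed under 0.5 CPM in all libraries, and at that level was -0.83 ± 0.33 in the astrocyte cohort (adjusted p = 0.0384, edgeR). Rpl22l1, the copy of the tag gene, fell like the standard members. Its astrocyte cohort inputs held 40.7, 34.8, 40.8 and 43.0 CPM and its IPs 8.38, 9.74, 9.90 and 11.01 CPM, a log2 fold change of -2.10 ± 0.09. Its neuron cohort inputs held 7.94, 7.73, 8.44 and 6.50 CPM and IPs 3.27, 3.50, 3.52 and 3.23 CPM, a log2 fold change of -1.19 ± 0.09. It was -1.19 ± 0.17 in SAPAP3 WT and -1.20 ± 0.13 in KO. Without any virus, bulk striatum held 9.23 to 12.6 CPM of it in WT and 10.2 to 10.4 in KO.

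Values in IP were compared with the length of the coding region. Among standard members Spearman's rho between the log2 fold change and coding length was 0.52 in the astrocyte cohort (n = 76), 0.18 in the neuron cohort (n = 75), 0.35 in SAPAP3 WT and 0.41 in KO (n = 76 each), with shorter genes lower. Other short genes were also lower in IP: 834 tested genes outside the list with under 1000 bases of exon had a median of -0.45 in the astrocyte cohort, beside -1.37 for the 52 listed genes of that length. For neurons these medians were -0.18 (979 genes) and -0.57 (51 genes), in SAPAP3 WT -0.21 (819) and -0.91 (52), and in KO -0.18 (803) and -0.74 (52). Over all tested genes outside the list with a known exon length, the relation with that length was weak. Spearman's rho was 0.08 in the astrocyte cohort, -0.04 in the neuron cohort, -0.04 in SAPAP3 WT and -0.03 in KO. Pearson's r with log2 length was 0.15, 0.16, 0.06 and 0.04 in the same order. The share of windows elsewhere had a rho of -0.09 with the astrocyte cohort's values and -0.29 with those of the neuron cohort. Among the 10 genes with at most 10% of windows elsewhere, 7 were lower and 3 higher in the astrocyte cohort without the fold limit (41.2% and 39.2% of all genes), and 6 lower and 3 higher in the neuron cohort (35.9% and 35.5%).

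Markers of microglia and endothelial cells fell in IP as well, while ependymal markers rose in the astrocyte and SAPAP3 cohorts. In the astrocyte cohort 10 of 10 microglia markers were lower (median -5.61), their summed level going from 930 to 1146 CPM in inputs to 59.97 to 67.7 CPM in IPs, and so were 10 of 10 endothelial markers (-3.47), from 130 to 165 CPM to 21.3 to 23.8 CPM. In the neuron cohort 10 of 10 microglia markers (-4.44) and 8 of 10 endothelial markers (-3.60) were lower, and in the SAPAP3 cohort 10 and 9 of 10 in each genotype. Ependymal markers were higher for 5 of 5 genes in astrocyte cohort IP (summed level 21.0 to 28.6 CPM in inputs and 66.4 to 128 CPM in IPs) and for 5 of 5 in each SAPAP3 genotype, and 0 of 5 passed in neuron IP. Markers of oligodendrocyte precursors summed to 250.1 to 265 CPM in astrocyte cohort inputs and 320 to 349 CPM in IPs, with 3 of 5 higher without the fold limit there and in SAPAP3 WT and 5 of 5 in KO, and 5 of 5 were lower in neuron IP. No marker list reached 0 in IP. The part of length or of these cells in the fall of the ribosomal protein genes was not tested.

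Other genes of translation were listed beside the ribosomal protein genes. The 77 mitochondrial ribosomal protein genes, which are also short but serve the ribosome of mitochondria, had a median of -0.01 in the astrocyte cohort. Past the fold limit 0 were higher and 1 was lower there (13.4% and 13.5% of all genes), the lowest being Mrpl53 at -1.13 ± 0.06. Without the limit 23 were higher and 26 lower (39.2% and 41.2%). Their median was 0.40 in the neuron cohort, with 0 called past the fold limit (0.42% of all genes higher and 15.8% lower). Without the limit 69 of the 77 were higher there and 1 was lower (35.5% and 35.9%). In SAPAP3 WT and KO the medians were 0.16 and 0.15. Past the limit Mrps6 was higher (1.12 ± 0.16 and 1.12 ± 0.09) and Mrpl23 lower (-1.43 ± 0.32 and -1.11 ± 0.20). Without it 35 were higher and 8 lower in WT (32.7% and 34.6%), and 34 and 5 in KO (36.1% and 35.9%). The 25 initiation factors, of which 24 were tested for neurons and SAPAP3 WT, had medians between 0.25 and 0.35. Past the fold limit 0 were called in any of the 4 comparisons. In the astrocyte cohort they ran from Eif4a2 at -0.29 ± 0.03 to Eif4g2 at 0.80 ± 0.05. Without the limit 16 were higher and 6 lower there (39.2% and 41.2% of all genes), and 22 and 0 for neurons (35.5% and 35.9%). In SAPAP3 WT and KO 13 were higher and 5 lower in each (32.7% and 34.6% of all genes in WT, 36.1% and 35.9% in KO). The 25 tested genes of ribosome biogenesis had medians between 0.07 and 0.41 with 0 called past the fold limit, from Nhp2 at -0.60 ± 0.05 to Ncl at 0.72 ± 0.05 in the astrocyte cohort. Without the limit 9 were higher and 5 lower in the astrocyte cohort, and 23 and 0 for neurons. The counts were 10 and 3 in SAPAP3 WT and 12 and 1 in KO, beside the same shares of all genes as for the initiation factors.

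The 18 other genes of translation known for a 5′ TOP start had medians of -0.33, -0.10, -0.30 and -0.25 in astrocyte, neuron, SAPAP3 WT and KO IP. Past the fold limit 3, 1, 2 and 1 were lower, where 13.5%, 15.8%, 12.1% and 11.5% of all genes were, and 0 higher. Without the limit 15, 9, 11 and 11 were lower, where 41.2%, 35.9%, 34.6% and 35.9% of all genes were. In the same order 2, 5, 2 and 2 were higher without it, where 39.2%, 35.5%, 32.7% and 36.1% were. The lowest in each was Gas5, a non-coding host of small nucleolar RNAs, at -1.71 ± 0.06 in the astrocyte cohort and -1.36 ± 0.05 for neurons. In the 15 genes of mTOR signalling and LARP1, medians lay between 0.05 and 0.22, with Rps6kb2, an S6 kinase, lowest in each cohort (-1.73 ± 0.08 in the astrocyte cohort and -1.31 ± 0.07 for neurons) and Eif4ebp1, a repressor of eIF4E, highest in the astrocyte cohort (1.71 ± 0.14).

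The difference between the cohorts was tested in 1 model of both, as the neuron cohort's log2 fold change minus that of the astrocyte cohort. Of 82 tested genes 20 were higher past the fold limit (8.27% of 16371 genes) and 0 lower (19.1%), and without the limit 70 were higher (35.8%) and 3 lower (34.3%). The median difference was 0.68, beside 0.02 over all genes. Rpl37a, one of the zinc-binding proteins of the large subunit, had the largest, 1.45 ± 0.105. Its astrocyte cohort inputs held 138, 132, 156 and 147 CPM and its IPs 39.6, 38.0, 40.5 and 40.5 CPM, while its neuron cohort inputs held 10.17, 10.8, 9.54 and 12.1 CPM and its IPs 6.64, 7.90, 7.75 and 8.76 CPM. IP stood below input in both, by more in the astrocyte cohort. Rpl34 (1.44 ± 0.18), Rps12 (1.33 ± 0.13), Rps21 (1.27 ± 0.09), Rps29 (1.27 ± 0.15) and Rplp1 (1.19 ± 0.06) were also higher.

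The 3 genes with a lower value in the neuron cohort were Rps27l (-0.60 ± 0.16, adjusted p = 0.00256, edgeR), Rpl10a (-0.55 ± 0.11) and Rpl24 (-0.43 ± 0.11). Rpl9 and Rps13 stood at -0.02 ± 0.12 and -0.01 ± 0.12 and did not pass. Rpl26 had no reads in the neuron cohort and gives no value. The tag itself had a difference of -0.99 ± 0.17. Cell type, cohort, sex and the counting of copies cannot be told apart in this comparison, and among genes with at most 10% of windows elsewhere the medians were -0.72 in the astrocyte cohort and -0.16 for neurons.

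**Figure D5:**
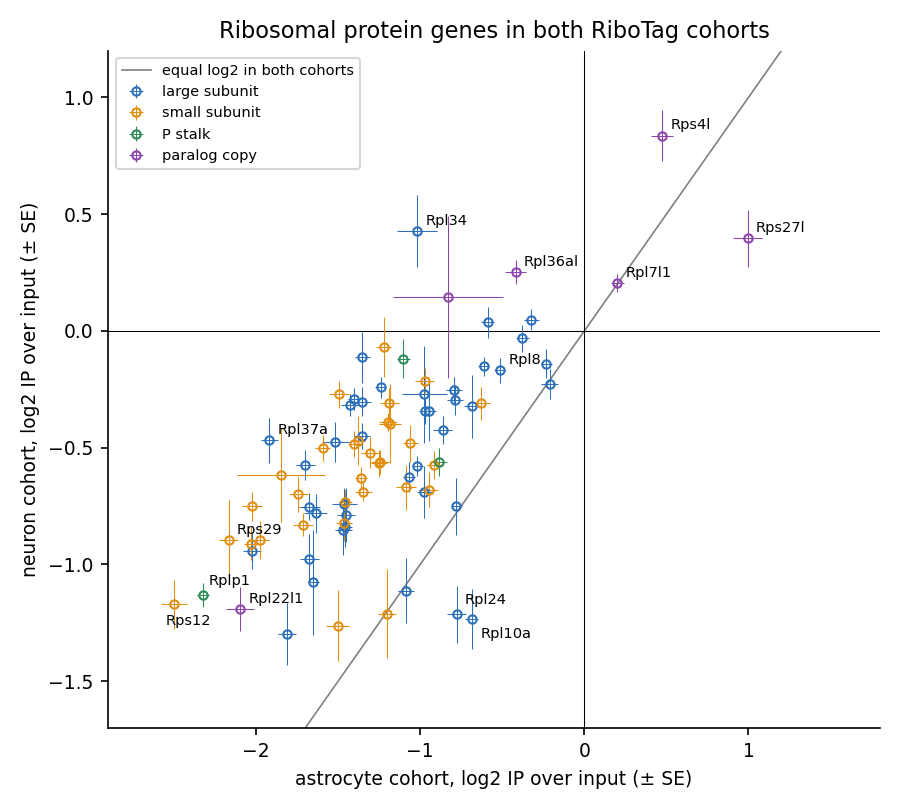
Log2 fold change of IP over input in the astrocyte cohort (x axis) and the neuron cohort (y axis) with SE bars for the 81 genes tested in both; the grey line marks equal values and colours give the role. Most genes lie above the line and below 0 on both axes, Rps27l, Rps4l and Rpl7l1 lie above 0 on both, and Rpl10a and Rpl24 lie below the line.

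Loss of SAPAP3 left no ribosomal protein gene past the test. In input 0 of 81 tested genes were called at an adjusted p under 0.05 in either direction (0% of 15591 genes were higher and 0.00641% lower), in IP 0 of 81 (0.00658% and 0.0197% of 15198 genes), and in bulk 0 of 82 (0% and 0% of 16020 genes). In each, 0 genes had an unadjusted p under 0.05, and limma-voom and DESeq2 called 0 as well. So few genes of any kind were called that these counts say little about the list. The bulk genotypes were not matched for sex: Xist ran from 0 to 194 CPM in bulk WT and reached no more than 0.03 CPM in bulk KO. The medians were -0.06 in input, 0.03 in IP and 0.01 in bulk.

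The individual differences had a median SE of 0.11 in input, 0.13 in IP and 0.09 in bulk. They share the same libraries, and 66 were negative and 15 positive in input, 31 and 50 in IP, and 37 and 45 in bulk. In input they ran from -0.51 for Rps29 to 0.32 for Rpl26, in IP from -0.52 for Rpl26 to 0.20 for Rpl11, and in bulk from -0.24 for Rpl23a to 0.29 for Rps13. Rpl27 in input had the smallest unadjusted p, above 0.05 (log2 -0.48 ± 0.21, adjusted p = 0.735, edgeR). The share of counts was 0.351% in KO and 0.372% in WT input (exact permutation p = 0.429), 0.202% and 0.201% in IP (p = 0.971), and 0.388% and 0.382% in bulk (p = 0.8286). The KO minus WT difference of the IP values was called for 0 of 82 genes (0% and 0% of 16059 genes), with a median of 0.09 and 0 genes at an unadjusted p under 0.05.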

How the data were processed

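Gene counts of 40 striatum libraries were deposited by the authors as 1 table, made per the labels and the study's methods by alignment to mm10 with STAR and counting with HTSeq; how reads that fit several places were counted is not given in the sources used here. The labels name a stranded TruSeq kit and the methods a Nugen kit. Rows were tested as deposited with edgeR 4.0.16 (quasi-likelihood, TMM, filterByExpr) in R 4.3.3, fitting the groups of each comparison. Calls needed a Benjamini-Hochberg adjusted p under 0.05 and, between fractions or cohorts, a log2 change beyond 1. Values are log2 fold changes from edgeR ± SE. The SE was derived as the absolute log2 fold change over the square root of the F statistic of the quasi-likelihood test. On simulated data with a log2 change of 1.5, the share of 200 changed genes recovered, among those tested, was 97.5% for astrocyte IP against input, 98.0% for neuron IP and 87.5% for the difference between cohorts. Recovery here needed an adjusted p under 0.05 and no fold limit, and only those 200 genes were changed. False calls made up 6.3%, 4% and 6.4% of the calls in the same order. They were 3.7% in SAPAP3 WT IP against input and 7.6% in bulk KO against WT.

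Limma-voom 3.58.1, DESeq2 1.42.0, other filters and scalings, rows of named pseudogenes added to their genes, all 10 groups in 1 fit, a replicate block, and leaving out each library were tried. IP and input libraries of the same mouse (in the neuron cohort, of the same number in the title) deviated together, with correlations of at least 0.249 over 11753 genes, so the numbers pair the libraries, and the block changed no count by over 1.5 times.

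Exon lengths, windows and starts came from RefSeq GRCm38.p6. The genes named were Rpl22, Rpsa, the P stalk, every paralog copy, and the 5 highest and 5 lowest of each comparison of IP with input, of the difference between cohorts and of the inputs, with the ends of each outside list described; some items are not reported here. Rps3, Rps15a, Rps20, Rpl8, Rpl4, Rpl11, Rpl12, Rpl27, Rpl14 and its pseudogene, and the genes shown for their start, were added after their values were seen. Members and lists were chosen with earlier results of these data known. Replicates are separate mice where the labels name them; p-values measure the spread between these libraries. The floor used for Rpl26 covers counting error only.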

Additional observations from a re-analysis of the deposited data

Results flagged for a closer look

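In 110 sets of 4 libraries (the share of counts and 10 genes always named, by group), 4 had a highest or lowest library apart from the others by Dixon's test, which chance does in about 1 in 20 such sets. Rpl22 stood at 1868 CPM in the second SAPAP3 WT IP library. Rplp0 stood highest at 112 CPM in 1 astrocyte cohort IP library and at 121.7 CPM in 1 bulk KO library. The ribosomal protein genes' share of counts was lowest, at 0.346%, in the third neuron cohort input.

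The IP against input values differed between the neuron and astrocyte cohorts by the interaction test. They were higher in the neuron cohort for 20 of 82 genes past the fold limit. Of the genes always named, Rplp1 was the 1 that passed, with a difference of 1.19.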

How the results depend on the processing

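With libraries scaled by total counts alone, the median log2 value of all genes in IP against input stood between -0.25 and -0.20, the medians of the ribosomal protein genes were -1.45 (astrocyte), -0.73 (neuron), -1.003 (SAPAP3 WT) and -0.91 (KO), and 19, 42 and 33 genes were lower in the neuron, WT and KO comparisons; Rpl7l1 reversed, to -0.0206 for astrocytes and -0.00102 for neurons. With no fold limit 3, 5, 3 and 3 genes were higher in the same order, and 65, 68 and 65 lower for neurons, WT and KO. With FPKM above 5 the neuron median was -0.67 and 7 genes were lower in KO. In astrocyte IP 1 gene was higher with DESeq2, with no filter and with all groups in 1 fit, and 0 to 1 when 1 library was left out. The median between inputs was -2.44 with no filter. In the paired fit with a replicate block the counts were 53, 10, 25 and 11 lower and the medians -1.23, -0.52, -0.83 and -0.72, and the block changed no other call among the counts. Leaving out 1 library gave 52 to 56 lower genes for astrocytes, 9 to 11 for neurons, 18 to 33 for WT and 9 to 14 for KO. The causes were not tested. Depth limits what can be said of genes under 1 CPM.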
